A study of Homo sapiens with 6 samples.

Results

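The genes described here are 9 genes of bone formation, CLEC11A and the 8 osteoblast lineage genes RUNX2, SP7, ALPL, SPP1, BGLAP, IBSP, DLX5 and MSX2, out of 28181 genes listed for each library. They were taken by symbol. CLEC11A was selected on its normalized counts in the groups compared here, where it differed, so its values are given as a description with no test, and the other 8 were chosen with earlier results of these data known. RNA was sequenced from 3 libraries of UE7T-9 SHC4 and 3 of UE7T-9 Cont. UE7T-9 cells are mesenchymal stem cells of human bone marrow, made immortal with hTERT and the papillomavirus gene E7. UE7T-9 SHC4 cells carried a lentiviral SHC4 coding sequence under a CMV promoter, with the genotype label SHC4-OE, and were selected with puromycin. UE7T-9 Cont cells carried the same vector with GFP according to the methods, while the sample labels give Nontarget and WT. The series' design text speaks of clones. How many infections or clones stand behind the 3 libraries of a group is not given, so the p-values measure only the spread between these libraries. The groups are called the SHC4 cells and the controls in the rest of the text. All cells were grown in DMEM without an osteogenic supplement being named.

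Bone is made by osteoblasts, which arise from mesenchymal stem cells of the marrow. RUNX2 starts the lineage and SP7 (osterix) acts after it. ALPL (tissue-nonspecific alkaline phosphatase) marks cells that prepare to mineralize, while SPP1 (osteopontin), IBSP (bone sialoprotein) and BGLAP (osteocalcin) are secreted into the bone matrix, BGLAP mainly by mature osteoblasts. DLX5 and MSX2 are homeobox factors that act on osteoblast genes. CLEC11A encodes osteolectin, a secreted C-type lectin made by LEPR-positive stromal cells and osteoblasts of the marrow, which promotes osteogenic differentiation through integrin alpha 11 beta 1. SHC4 is an adaptor protein that binds phosphorylated tyrosine of receptors.

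CLEC11A lies on chromosome 19 (50723329 to 50725718, GRCh38, GENCODE 29) and SPP1 on chromosome 4 (87975650 to 87983426), both on the plus strand. They had the largest differences of the 9 genes, in opposite directions, and the stretch before their start is shown for that reason. The sequences are from RefSeq on GRCh38.p14 and end 1 base before the GENCODE start of the gene. Capitals mark TGTGGT or its reverse complement ACCACA, the core letters that RUNX factors bind.
CLEC11A (chr19:50723114-50723328, plus strand): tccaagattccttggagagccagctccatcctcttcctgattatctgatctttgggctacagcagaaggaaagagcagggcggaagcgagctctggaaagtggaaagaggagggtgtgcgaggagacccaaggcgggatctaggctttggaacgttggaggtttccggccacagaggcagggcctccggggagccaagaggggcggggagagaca
SPP1 (chr4:87975464-87975649, plus strand): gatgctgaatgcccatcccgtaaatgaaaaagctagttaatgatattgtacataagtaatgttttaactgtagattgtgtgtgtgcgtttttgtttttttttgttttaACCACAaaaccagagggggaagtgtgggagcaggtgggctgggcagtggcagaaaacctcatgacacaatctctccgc

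Promoter windows from 250 bases before to 50 bases after a start were found for 7 of the 9 genes, in 10 windows. The RUNX letters, searched on both strands, occurred in 3 of the 10 windows, each of another gene, and in 13.1% of all 34796 windows of that length. These were SPP1 (142 bases before the RefSeq start), BGLAP (163 bases before) and the first of the windows of RUNX2 itself. RUNX2 held them 191 and 87 bases before the start and at positions after it as well. The matches before the start of RUNX2 and BGLAP are shown on the plus strand with 12 bases on each side, capitals again marking the RUNX letters, because osteocalcin is the classic RUNX2 target of bone and RUNX2 can act on its own gene.
RUNX2, farther match (chr6:45328127-45328156): aggaaaggccttACCACAagccttttgtga
RUNX2, nearer match (chr6:45328231-45328260): gtgaggtcacaaACCACAtgattctgcctc
BGLAP (chr1:156242009-156242038): ccgcagctcccaACCACAatatcctttggg

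CLEC11A held neither the RUNX letters nor TTCNNNGAA, the STAT letters, in its window. TTCNNNGAA occurred in 0 of the 10 windows of these genes and in 7.67% of all windows. A match is a description of the letters and not of binding.

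The deposited values are normalized counts, gene counts divided by 1 size factor per library, and recovered depth ranged from 18144993 to 27721397 reads. A floor of 3 reads equals a normalized count of 2.50 to 3.53. SHC4 itself ranged from 56.5 to 157 in the controls and from 119166 to 155006 in the SHC4 cells, as the labels say. Control replicate 1 was closer to the SHC4 libraries than to the other controls, by small margins. Its log2 values correlated at 0.968 to 0.975 with the SHC4 libraries across 23040 genes, and at 0.967 and 0.962 with control replicates 2 and 3. Those 2 controls correlated at 0.974 with each other, and control replicate 3 at 0.963 to 0.964 with the SHC4 libraries. For several genes, results are given with and without control replicate 1. That library was picked by its values in these data. Without it limma called 367 genes higher and 339 lower, against 12 and 2 with all libraries. An adjusted p without control replicate 1 thus describes the remaining libraries and is no independent test of a difference.

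The stromal identity of the cells was visible in both groups. THY1, NT5E and ENG, surface markers of mesenchymal stem cells, ranged from 2286 to 22365 in all 6 libraries. Markers of blood and endothelium were low, with PTPRC (CD45) at 2.95 to 6.82 in the controls and 0 to 2.64 in the SHC4 cells, SPI1 at 0.832 to 2.92 and CDH5 at 0 to 1.18. CD34 (39.6 to 52.7) and PECAM1 (7.80 to 38.4) were above the floor. The summed normalized count of these 5 markers was 62.0 to 67.1 in the controls and 65.9 to 84.1 in the SHC4 cells.

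**Figure D1:**
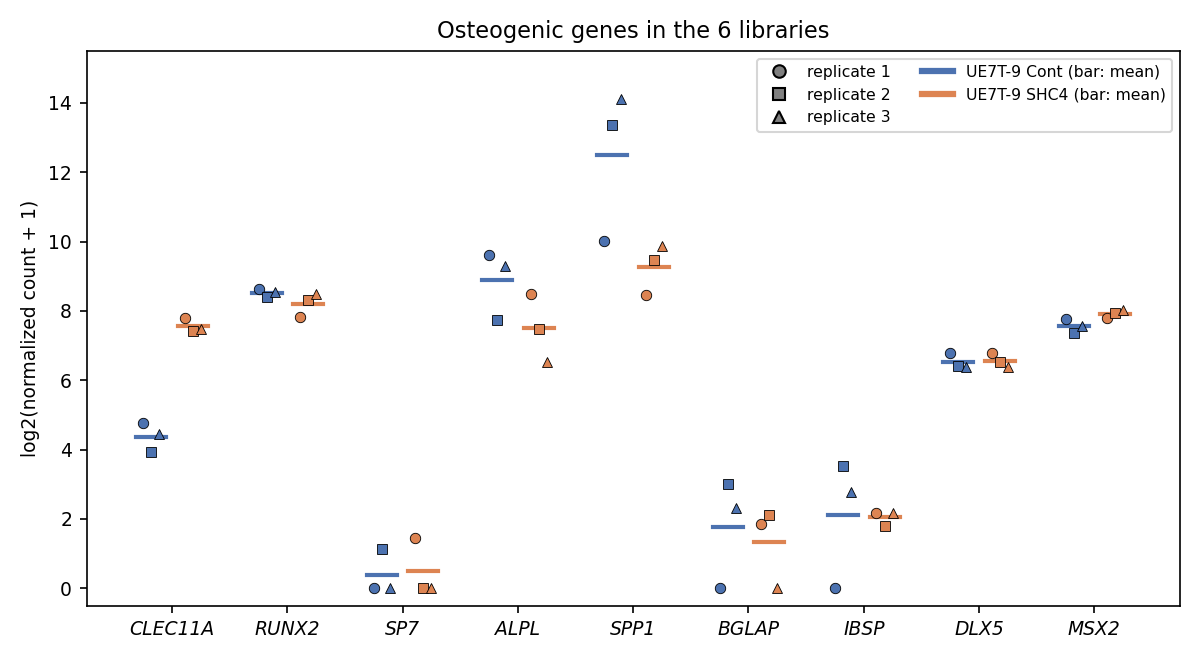
Each point is 1 library and shows log2(normalized count + 1) on the vertical axis for the 9 genes on the horizontal axis, with UE7T-9 Cont in blue, UE7T-9 SHC4 in orange, symbols for the replicate number and a bar for the mean of 3. CLEC11A lies between 169 and 219 normalized counts in UE7T-9 SHC4 and between 14.1 and 26.3 in UE7T-9 Cont, while SPP1 lies below every control in UE7T-9 SHC4.

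CLEC11A RNA was several times higher in the SHC4 cells than in the controls. Of the osteoblast transcription factors, RUNX2, DLX5 and MSX2 did not pass the test and SP7 had too few reads for one, while the late matrix genes BGLAP and IBSP were near the floor of detection in both groups. SPP1 had lower values in every SHC4 library, with controls that differed widely among themselves.

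CLEC11A, the secreted osteogenic factor of the list, had normalized counts of 26.3, 14.1 and 20.7 in control replicates 1, 2 and 3. It had 219, 169 and 178 in SHC4 replicates 1, 2 and 3. These values rest on 27, 12 and 21 reads in the controls and on 249, 203 and 153 reads in the SHC4 cells. The groups did not overlap, and the lowest SHC4 library was 6.42 times the highest control. The means were 20.4 ± 6.10 and 189 ± 26.5 (SD, n = 3 each), a ratio of 9.26. The log2 difference of 3.18 (standard error 0.29) was the 19th highest of the 23040 genes tested, those averaging 1 or more. CLEC11A was selected on this difference, so the rank is a description only. Without control replicate 1 the ratio was 10.8. In bulk RNA, more cells that express a gene and more RNA per cell cannot be told apart.

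Of the other 8 genes, 7 were tested, and SP7 was not, since its mean over the 6 libraries was under 1. With limma and Benjamini-Hochberg adjustment over all genes, 0 of the 7 were called, which took an adjusted p below 0.05 together with a log2 difference beyond 1 in either direction, where 0.0608% of all genes tested were called. At an unadjusted p below 0.05 there were 2 (ALPL and SPP1), against 14.4% of all genes. DESeq2 on the recovered reads called 1 of 5 (SPP1), against 2.2% of 16153 genes, and edgeR called 0 of 5, against 0.0631% of 15859 genes. The 3 libraries of each group did not overlap for 2 of the 7 (SPP1 and MSX2), against 19.3% of all genes. SPP1 was lower in all SHC4 libraries, as were 10.2% of all genes, and MSX2 was higher in all, as were 9.13%. The log2 difference was below 0 for 5 of the 7 and for 50.3% of all genes. The median log2 difference of the 7 genes was -0.31, and that of all genes was -0.00395.

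RUNX2, the factor that starts the osteoblast lineage, was expressed in every library. Its normalized counts were 393, 334 and 374 in the controls and 225, 319 and 359 in the SHC4 cells. The groups overlapped, and SHC4 replicate 1 was the lowest library. The means were 367 ± 29.8 and 301 ± 68.6 (SD, n = 3 each), with a log2 difference of -0.31 (standard error 0.19, limma adjusted p = 0.492). RUNX2 (chromosome 6, 45328157 to 45664349) shares no exon base with SUPT3H, which overlaps it on the opposite strand.

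SP7, which acts after RUNX2, was at or under the floor throughout. It had 1 read in control replicate 2, 2 reads in SHC4 replicate 1 and 0 in the other 4 libraries. A count of 0 allows a normalized count of up to 2.50 to 3.53, depending on the library. A difference of SP7 within that range was not detectable at this depth.

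DLX5 and MSX2, the homeobox factors, were expressed in every library. DLX5 had normalized counts of 110.2, 84.8 and 81.6 in the controls and 109.9, 90.7 and 82.7 in the SHC4 cells. The groups overlapped, the replicate 1 library was the highest of both, and the log2 difference was 0.037 (standard error 0.23, limma adjusted p = 0.958). Its sign turned under library size scaling and in 3 of the 6 fits with a library left out. MSX2 had 218, 162 and 187 in the controls and 221, 242 and 261 in the SHC4 cells. All SHC4 libraries lay above all controls, but control replicate 1 and SHC4 replicate 1 were close to each other. The log2 difference of MSX2 was 0.36 (standard error 0.17, limma adjusted p = 0.386). Without control replicate 1 the difference was 0.47 (limma adjusted p = 0.152).

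ALPL, the phosphatase that frees phosphate for mineral, varied widely within both groups. Its normalized counts were 782, 211 and 625 in the controls and 361, 176 and 92.0 in the SHC4 cells. Control replicate 2 lay below SHC4 replicate 1, so the groups overlapped. The means were 539 ± 295 and 209.9 ± 138 (SD, n = 3 each), with a log2 difference of -1.37 (standard error 0.55, limma adjusted p = 0.305, DESeq2 adjusted p = 0.349). Without control replicate 1 its mean in the other 2 controls was still above that of the SHC4 cells, with a smaller log2 difference (-1.004). The highest library was 3.71 times the lowest in the controls and 3.93 times in the SHC4 cells.

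SPP1, the matrix protein that cells bind through integrins and CD44, had the highest level per length of the 9 genes. Among the 6 above the floor it had the widest spread within the controls, though not within the SHC4 cells. Its normalized counts were 1040.1, 10458 and 17769 in the controls and 349.8, 708 and 943 in the SHC4 cells. All SHC4 libraries were below all controls, but control replicate 1 was only 1.10 times the highest of them, whereas the other controls were far above. The means were 9756 ± 8386 and 667 ± 299 (SD, n = 3 each), and the controls spanned a range of 17.1 times. The log2 difference was -3.23 (standard error 0.88), the 16th lowest of 23040 genes. With all libraries and no replicate block limma did not call it (adjusted p = 0.187), nor did edgeR (adjusted p = 0.151), whereas DESeq2 did (log2 fold change -3.87, standard error 1.03, adjusted p = 0.00959). Without control replicate 1, the limma log2 difference was -4.47 (adjusted p = 0.000698) and the mean of the other 2 controls was 21.2 times that of the SHC4 cells. With the replicate number as a block and all 6 libraries, limma also called SPP1 (log2 difference -3.23, adjusted p = 0.0483). In the fit without control replicate 1, 1 of the 7 genes was called (SPP1), against 3.06% of all genes. Leaving out any other library, limma did not call SPP1 (log2 difference -3.54 to -2.42, adjusted p = 0.267 to 0.588).

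IBSP and BGLAP, the late matrix genes, were near the floor. IBSP, which lies 163215 bases before SPP1 on chromosome 4, had 0, 9 and 6 reads in the controls and 4, 3 and 3 in the SHC4 cells. BGLAP had 0, 6 and 4 reads in the controls and 3, 4 and 0 in the SHC4 cells. In both genes control replicate 1 had no read and control replicate 2 had the most. The groups overlapped for both, and the limma adjusted p was 0.984 for IBSP and 0.866 for BGLAP. BGLAP shares 33.4% of its annotated exon bases with the readthrough gene PMF1-BGLAP, on the same strand, so its reads are uncertain. PMF1-BGLAP itself had a normalized count of 0 to 2.50.

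**Figure D2:**
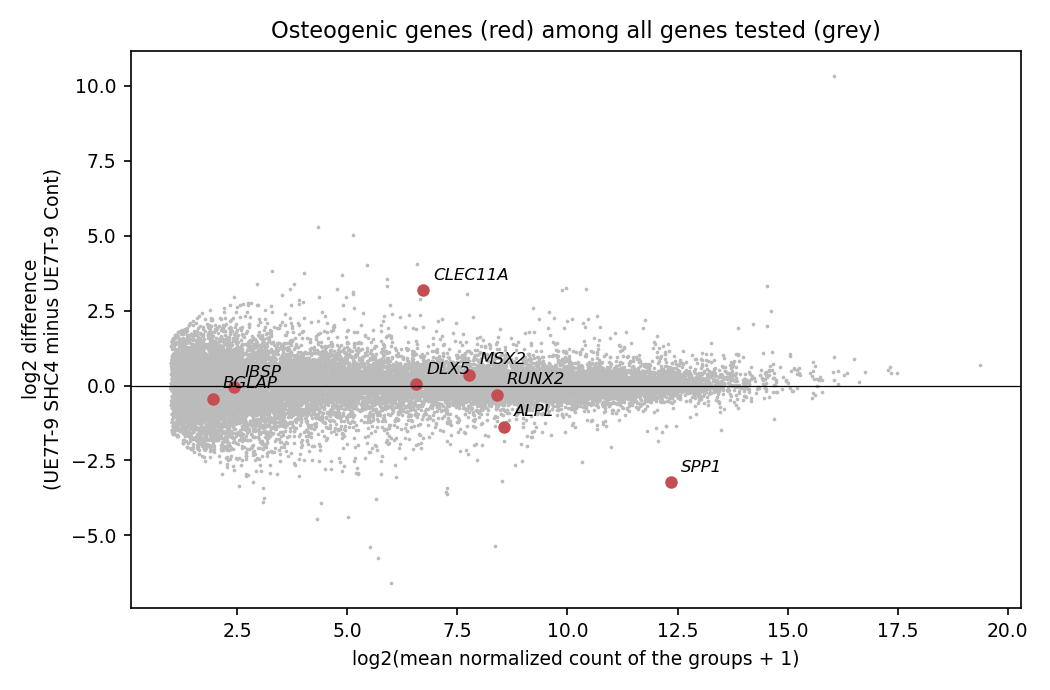
Each grey point is 1 of the 23040 genes tested, with log2 of the mean normalized count plus 1 on the horizontal axis and the limma log2 difference (UE7T-9 SHC4 minus UE7T-9 Cont) on the vertical axis, and 8 of the osteogenic genes are in red. CLEC11A lies at 3.18 and SPP1 at -3.23, at the edges of the cloud, and the other 6 lie between -1.37 and 0.36.

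Levels of different genes were compared as normalized count per kb of annotated exon. In the controls the order was SPP1 (4203 per kb), ALPL (179), MSX2 (83.4), DLX5 (52.7), RUNX2 (44.8), CLEC11A (13.9), IBSP (3.56), BGLAP (3.08) and SP7 (0.115). ALPL and MSX2, DLX5 and RUNX2, and the last 3 genes were not separated as neighbours in that order, since their libraries overlapped. In the SHC4 cells the order was SPP1 (287 per kb), CLEC11A (128), MSX2 (106), ALPL (69.8), DLX5 (54.0), RUNX2 (36.7), IBSP (2.05), BGLAP (1.67) and SP7 (0.172). CLEC11A thus stood in place 6 in the controls, with no library overlapping those of RUNX2 or IBSP, and in place 2 in the SHC4 cells. Its lowest SHC4 library (115.03 per kb) was barely above the highest of MSX2 (114.9 per kb) and below the highest of ALPL (120.1 per kb), so that CLEC11A and ALPL overlapped in that group. ALPL also overlapped with MSX2, DLX5 and RUNX2 there, and the last 3 genes were again not separated as neighbours. The annotation used for counting is not given, so the lengths, from GENCODE 29, may differ from those counted.

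**Figure D3:**
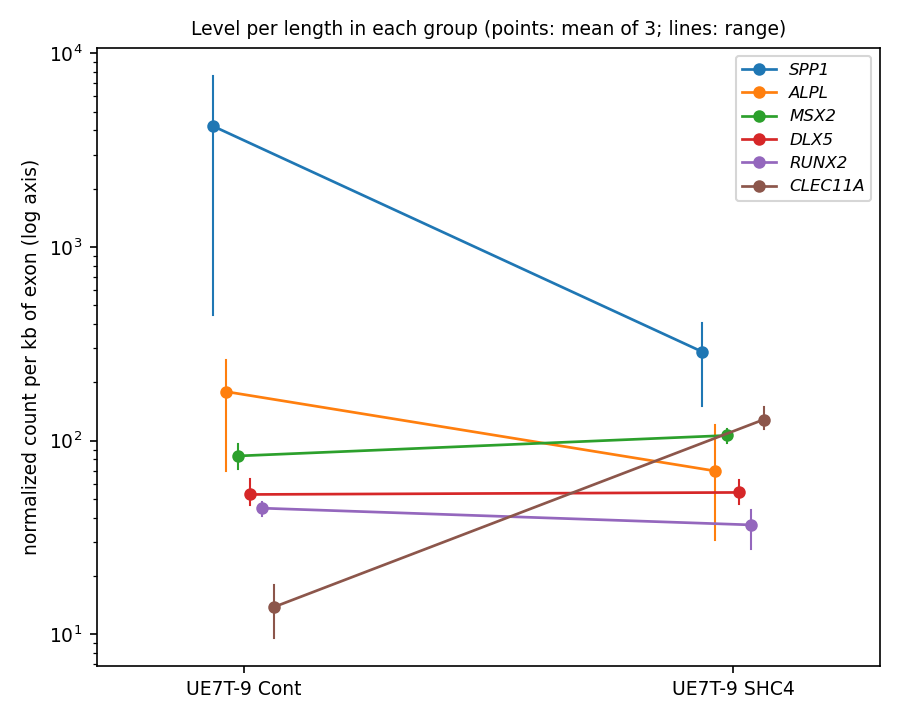
The vertical axis, which is logarithmic, gives the normalized count per kb of exon for the 6 genes above the floor, with points for the mean of 3 libraries and vertical lines from the lowest to the highest library. CLEC11A goes from 13.9 to 128 per kb and its mean passes those of RUNX2, DLX5, MSX2 and ALPL, though its libraries overlap those of ALPL in UE7T-9 SHC4, while SPP1 goes from 4203 to 287 per kb and its control range spans 448 to 7656.

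Likeness to CLEC11A over the 6 libraries was taken as Pearson's r of log2(normalized count + 1), among 15857 genes averaging 10 or more. The 5 genes most like it were AC024075.2 (ENSG00000269044, r = 0.997), WARS2 (0.994), FES (0.994), ANKRD16 (0.993) and FNDC1 (0.990). WARS2 encodes the mitochondrial tryptophanyl-tRNA synthetase, and FES is a non-receptor tyrosine kinase. With 2 groups, such an r is set by the distance between the groups and by the narrow spread within them. All 5 had higher values in every SHC4 library than in every control, with log2 differences from 0.43 (WARS2) to 1.23 (FNDC1), below the 3.18 of CLEC11A. FES, for example, had 509, 464 and 513 in the controls and 715, 703 and 730.1 in the SHC4 cells.

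The other genes of the pathway were taken from 4 lists with 40 genes in all, of which 33 had a mean of at least 1. RNF43, DMP1, MEPE, DSPP, TNFSF11, SOST and FGF23 were not among the identifiers analysed. With limma 0 of the 33 were called, against 0.0608% of all genes, and 8 had an unadjusted p below 0.05, against 14.4%. DESeq2 called 1 of 29 (TNFRSF11B, higher), against 2.2%, and edgeR called 0 of 29, against 0.0631%. The libraries of the groups did not overlap for 8 of the 33, against 19.3% of all genes, 6 of them with higher values in the SHC4 cells (9.13% of all genes) and 2 with lower values (10.2%). Without control replicate 1, limma called 2 (TNFRSF11B and OMD, both higher), against 3.06% of all genes.

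The receptors of osteolectin were abundant in these cells. ITGA11, its integrin alpha 11 chain, had normalized counts of 6915, 6548 and 4244 in the controls and 7179, 11446 and 10790.1 in the SHC4 cells. All SHC4 libraries lay above all controls, with SHC4 replicate 1 just above control replicate 1. The log2 difference was 0.74 (standard error 0.24, limma adjusted p = 0.225, DESeq2 adjusted p = 0.0662). ITGA10, the related alpha 10 chain, had a log2 difference of -0.096 (standard error 0.15, limma adjusted p = 0.806). ITGB1, the beta chain that pairs with both and the gene with the highest level per length of its list, had one of 0.17 (standard error 0.20, limma adjusted p = 0.739). WNT signalling acts downstream of this receptor, and 1 of the 5 tested WNT target and effector genes (AXIN2, LEF1, TCF7, NKD1 and SP5) did not overlap between the groups, against 19.3% of all genes. This was SP5, with 5, 1 and 2 reads in the controls and 7, 9 and 6 in the SHC4 cells.

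Among the other osteoblast regulators, 2 of 9 did not overlap between the groups, a share near the 19.3% of all genes. MSX1, a homeobox paralog of MSX2, had 219, 251 and 265 in the controls and 182, 172 and 146 in the SHC4 cells, with a log2 difference of -0.56 (standard error 0.17, limma adjusted p = 0.207). TWIST2, a basic helix-loop-helix factor that restrains RUNX2, had 461, 429.7 and 393 in the controls and 561, 546 and 541 in the SHC4 cells, with a log2 difference of 0.36 (standard error 0.13, limma adjusted p = 0.254). ATF4, the member with the highest level per length, overlapped (log2 difference 0.20, standard error 0.27, limma adjusted p = 0.78).

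Among 12 tested genes of bone matrix and mineralization, COL1A1, which encodes the main collagen chain of bone, had the highest level per length. It had 315042, 87857 and 67813 in the controls and 276719, 130035 and 122241 in the SHC4 cells. The replicate 1 library was the highest of both groups, and the log2 difference was 0.41 (standard error 0.61, limma adjusted p = 0.799). Without control replicate 1 the difference was 1.09 (limma adjusted p = 0.179). SLC20A1, a phosphate transporter, had 4940.2, 7806 and 7558 in the controls and 3949, 3573 and 4289 in the SHC4 cells. All SHC4 libraries were below all controls, with a log2 difference of -0.76 (standard error 0.19, limma adjusted p = 0.17, DESeq2 adjusted p = 0.0101). It was -0.97 without control replicate 1 (limma adjusted p = 0.00605). Leaving out any other library gave SLC20A1 a limma adjusted p of 0.189 to 0.588. SLC20A2, its paralog, did not overlap in the other direction (log2 difference 0.20, standard error 0.11, limma adjusted p = 0.444), and neither did MGP, the mineralization inhibitor matrix Gla protein (0.86, standard error 0.29, limma adjusted p = 0.244). OMD, the matrix proteoglycan osteomodulin, was chosen after its values were seen and had 21, 0 and 2 reads in the controls and 23, 47 and 30 in the SHC4 cells. Its log2 difference was 2.97 with all libraries (limma adjusted p = 0.227) and 4.18 without control replicate 1 (limma adjusted p = 0.0083).

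TNFRSF11B encodes osteoprotegerin, the decoy that keeps the osteoclast factor RANKL from its receptor. It had normalized counts of 401, 320.2 and 218 in the controls and 1098, 571 and 830.3 in the SHC4 cells. The groups did not overlap, and the means were 313 ± 91.3 and 833 ± 263 (SD, n = 3 each). The log2 difference was 1.40 (standard error 0.27, limma adjusted p = 0.111, edgeR adjusted p = 0.13, DESeq2 adjusted p = 0.000371). It was 1.60 without control replicate 1 (limma adjusted p = 0.0116). Leaving out any other library gave a limma adjusted p of 0.132 to 0.426. CSF1, the macrophage factor with the highest level per length of its list, had a log2 difference of 0.045 (standard error 0.20, limma adjusted p = 0.943).

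LEPR, the receptor that marks the stromal cells in which osteolectin is made, had 862, 658 and 398 in the controls and 1493, 1132 and 1699 in the SHC4 cells. The groups did not overlap, with a log2 difference of 1.22 (standard error 0.27, limma adjusted p = 0.137, DESeq2 adjusted p = 0.00344). Without control replicate 1 the limma log2 difference was 1.47 (adjusted p = 0.00934). Leaving out any other library gave a limma adjusted p of 0.171 to 0.473. Of the 5 stromal markers, DESeq2 called 1 (LEPR), against 2.2% of all genes, and edgeR called 0, against 0.0631%. With limma 0 were called, against 0.0608%, and 3 had an unadjusted p below 0.05, against 14.4%. Limma called 3 without control replicate 1 (LEPR, THY1 and CXCL12, all higher), against 3.06%. CXCL12 had 19481, 4683 and 1880 in the controls and 24558, 19535 and 19476 in the SHC4 cells. Its log2 difference was 1.92 with all libraries (limma adjusted p = 0.25) and 2.83 without control replicate 1 (limma adjusted p = 0.00262). That of THY1 was 1.15 with all libraries (limma adjusted p = 0.234) and 1.67 without control replicate 1 (limma adjusted p = 0.00167). The groups overlapped for both genes, since control replicate 1 lay above SHC4 replicate 3 (7742 against 7512 for THY1). DESeq2 with all libraries called neither (adjusted p = 0.516 for CXCL12 and 0.145 for THY1). NT5E, the marker with the highest level per length in the controls, had a log2 difference of -0.36 (standard error 0.23, limma adjusted p = 0.507).

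**Figure D4:**
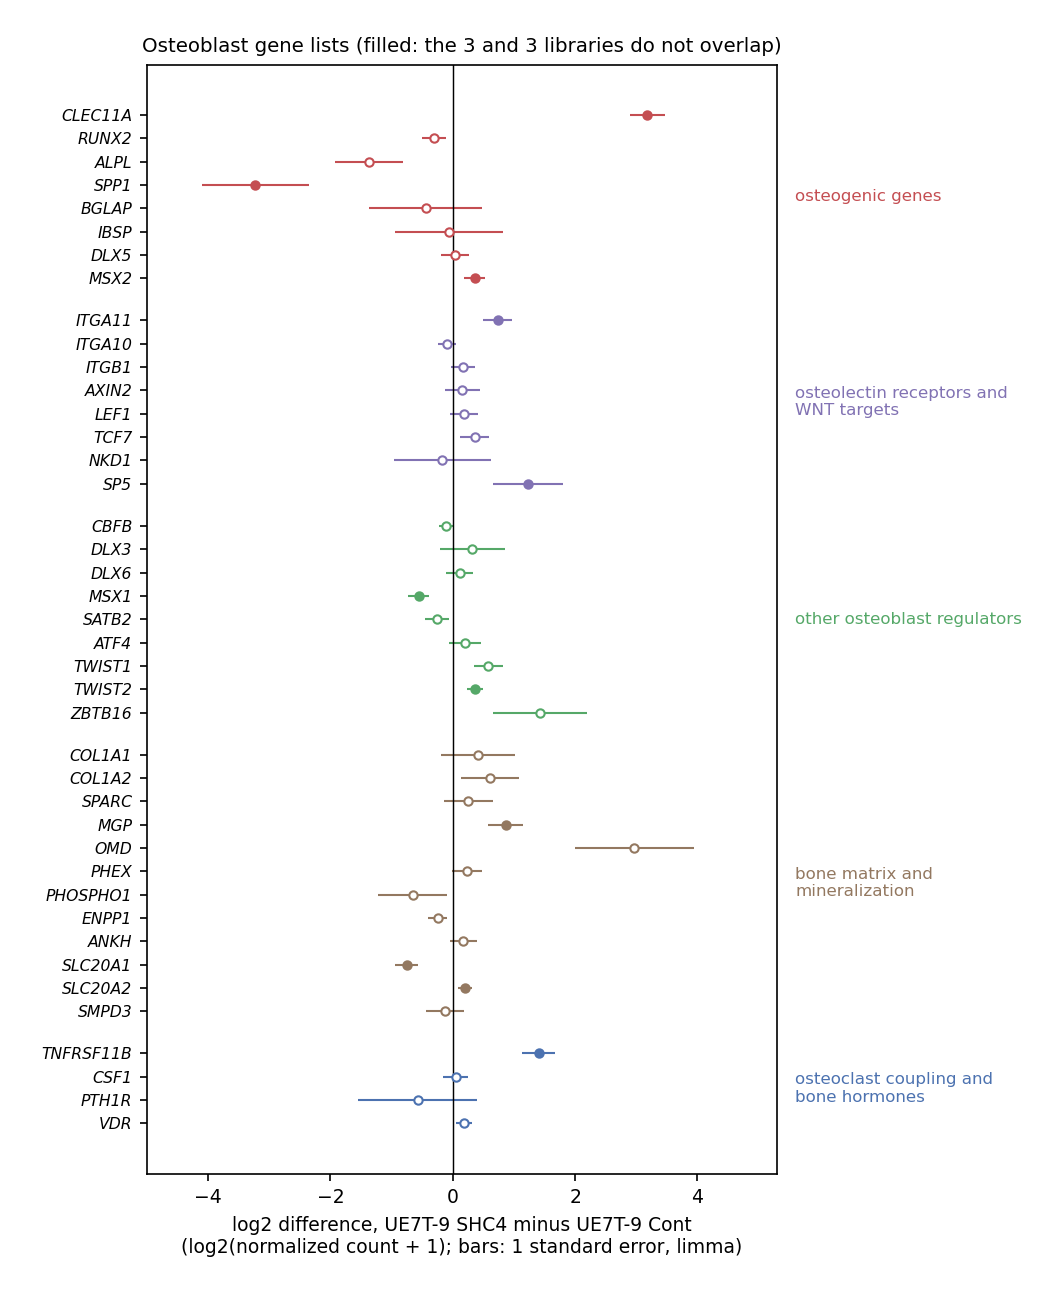
Points give the limma log2 difference (UE7T-9 SHC4 minus UE7T-9 Cont) with bars of 1 standard error for the osteogenic genes and the 4 further lists, 41 tested genes in all, and filled points mark genes whose libraries do not overlap between the groups. CLEC11A (3.18) and SPP1 (-3.23) lie farthest out, followed by OMD (2.97), whose point is open.

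**Figure D5:**
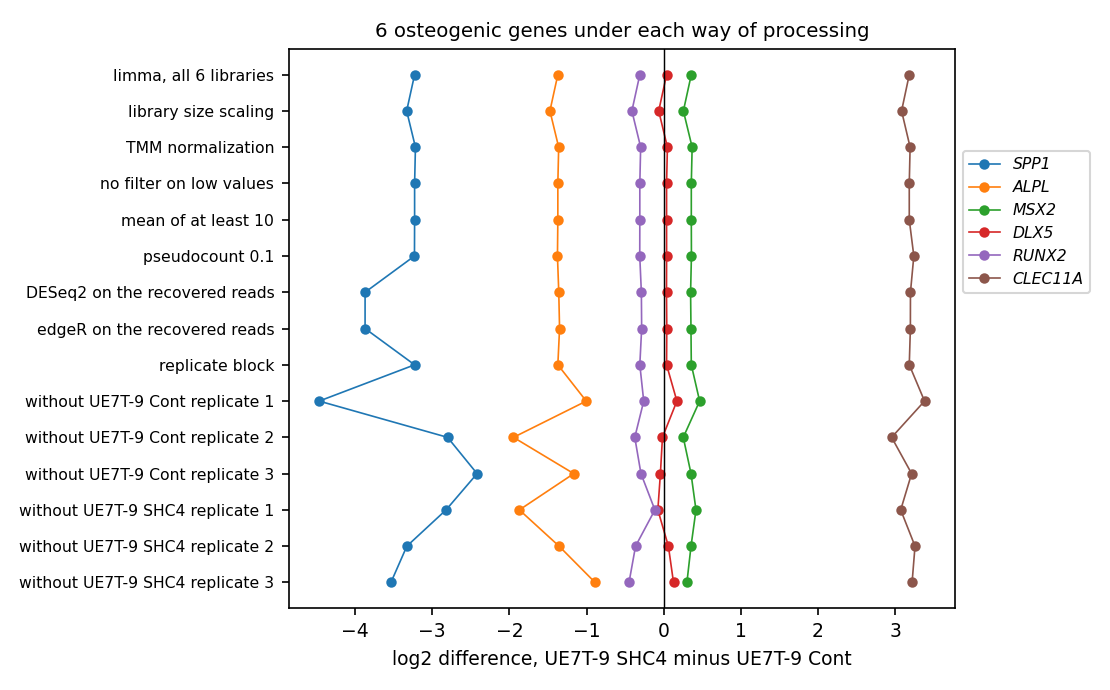
The horizontal axis gives the log2 difference of 6 osteogenic genes under 15 ways of processing, 1 per line. CLEC11A stays between 2.95 and 3.38, SPP1 moves between -4.47 and -2.42 over these settings, and DLX5 lies on both sides of 0.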

How the data were processed

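The 6 RNA libraries were grouped by their sample titles, 3 as UE7T-9 SHC4 and 3 as UE7T-9 Cont. The authors deposited 1 signal value for each gene in each library, the gene count divided by 1 size factor (a normalized count). Per the labels' processing notes HISAT2 2.0.5, featureCounts 1.5.0-p3 and DESeq2 were used. The genome build, annotation and strand setting are not given in the sources used here. Dividing by the smallest value above 0 in a library gave whole reads for 100% of values (tolerance 0.01), and these were used as recovered reads. All 28181 identifiers were found in GENCODE 29.

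The 23040 genes averaging 1 or more were tested with limma 3.58.1 (trended eBayes, R 4.3.3) on log2(normalized count + 1), with Benjamini-Hochberg adjustment over all of them. Differences are on that scale, which understates those of low genes. Calls needed a log2 difference beyond 1 in size as well as an adjusted p below 0.05. The exact permutation test of 3 libraries against 3 cannot go below a two-sided p of 0.1. Alternatives were DESeq2 1.42.0 and edgeR 4.0.16 (quasi-likelihood) on the recovered reads, library size and TMM scaling, other filters, another pseudocount, a replicate block and leaving out each library. In simulated libraries each test recovered 99.5% of 200 genes given a log2 difference of 2. That share does not carry over to the real libraries. With all libraries and no replicate block, limma called neither SPP1 (log2 difference -3.23, adjusted p = 0.187) nor ACAN (3.31, adjusted p = 0.18). Nor was it taken as the power for genes near the floor, such as IBSP and BGLAP.

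The genes and lists were chosen with earlier results of these data known. Named are the 9 genes, SHC4, the osteolectin integrins, the 5 genes most like CLEC11A, genes overlapping a member, and from each list genes with an adjusted p below 0.05 in any test, the gene with the highest level per length and up to 3 genes with a mean of at least 10 whose groups do not overlap. Others were named after their values were seen.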

Additional observations from a re-analysis of the deposited data

How the results depend on the processing

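The number of genes called higher and lower by limma (12 and 2) was 19 and 5 under library size scaling, 20 and 4 under TMM scaling, 31 and 9 without a filter, 11 and 1 with a pseudocount of 0.1, 170 and 185 with DESeq2, and 9 and 1 with edgeR. With each library left out it ranged from 1 to 367 higher and from 0 to 339 lower, with the most calls without control replicate 1. Leaving out control replicate 3 alone gave counts within 1.5 times of those with all libraries. The count of osteogenic genes other than CLEC11A was 0 with limma, 1 with DESeq2 (SPP1) and 0 to 1 with a library left out. That of the further osteoblast genes was 0, 1 with DESeq2 and 0 to 2 with a library left out. CLEC11A, RUNX2, ALPL, SPP1 and MSX2 kept their direction under all 14 alternatives. For CLEC11A, SPP1 and MSX2, whose groups did not overlap, leaving out a library could not have turned it. The replicate block could not have turned it for any gene, since each number occurs once in each group. CLEC11A was moreover selected on this difference. With library size scaling, which shifted the median over all genes to -0.10, DLX5 was -0.065, and it was -0.076 to 0.17 with a library left out. IBSP was 0.80 with a pseudocount of 0.1 and -1.11 to 0.66 with a library left out, and BGLAP was -1.33 to 0.22. The cause was not tested.

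With the replicate number as a block, 25 genes were called higher and 14 lower, and 1 of the osteogenic genes other than CLEC11A was called (SPP1, limma adjusted p = 0.0483). After subtracting group means, libraries sharing a number correlated at 0.148, 0.013 and -0.00696 over the 23040 genes tested, and at 0.409, 0.146 and 0.149 over the 12678 genes averaging 50 or more. In that second set control replicate 2 correlated better with SHC4 replicate 3 (0.517). Whether the numbers pair the libraries is thus unsettled, and the fit without the block is the one reported. IBSP, BGLAP and SP7 had at most 9 reads in a library, and differences of a few reads in them were not detectable at this depth.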

Other observations

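The alternative fates of marrow stromal cells are cartilage and fat. ACAN, which encodes the cartilage proteoglycan aggrecan, had normalized counts of 11490, 7726 and 695 in the controls and 29035, 38276 and 54052 in the SHC4 cells. The groups did not overlap, with a log2 difference of 3.31 (standard error 0.86, limma adjusted p = 0.18, DESeq2 adjusted p = 0.114), and without control replicate 1 the difference was 4.08 (limma adjusted p = 0.0185). SOX9, the factor that starts the cartilage lineage, had a log2 difference of 0.0022 (standard error 0.20, limma adjusted p = 0.998). COL2A1, the cartilage collagen, was under the floor in all 6 libraries. MATN3 (log2 difference -0.45, limma adjusted p = 0.439) and COL10A1 (-1.07, limma adjusted p = 0.608) overlapped, with means that went the other way from ACAN. Non-overlapping groups were seen for 2 of the 5 tested cartilage markers (ACAN, higher, and COL2A1, lower), against 19.3% of all genes. With limma 0 of the 5 tested cartilage markers were called (0.0608% of all genes) and 1 had an unadjusted p below 0.05 (14.4% of all genes). DESeq2 and edgeR called 0 of 3, against 2.2% and 0.0631% of all genes.

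Of 5 tested adipocyte markers, 0 were called with limma, against 0.0608% of all genes, and 1 (FABP4) had an unadjusted p below 0.05, against 14.4%. DESeq2 and edgeR called 0 of 3, against 2.2% and 0.0631% of all genes. FABP4, a fatty acid carrier of adipocytes, had normalized counts of 42.9, 65.9 and 68.9 in the controls and 16.7, 32.5 and 32.6 in the SHC4 cells. All SHC4 libraries were below all controls, with a log2 difference of -1.12 (standard error 0.36, limma adjusted p = 0.226). PPARG, the adipocyte regulator with the highest level per length of its list, overlapped (log2 difference -0.32, standard error 0.14, limma adjusted p = 0.352). CEBPA went the other way and also overlapped (log2 difference 0.59, standard error 0.61, limma adjusted p = 0.703). Non-overlapping groups were seen for 2 of the 5 (FABP4 and PLIN1, both lower), against 19.3% of all genes. PLIN1 had 5, 3 and 7 reads in the controls and 2, 3 and 1 in the SHC4 cells. ADIPOQ and LPL were near or under the floor.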
